A study of Mus musculus with 32 samples.

Results

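The clustered Hox genes of the mouse were followed through 4 tissues, 2 eye movement related brainstem sites and 2 muscles. Members were taken by symbol, as every gene row named Hox followed by a cluster letter from a to d and a paralogue number. The rule found 39 genes among the 24421 gene rows of the count table. The 4 clusters lie on the mm10 genome at chr6:52155590-52260880 (Hoxa, 11 genes, minus strand), chr11:96194316-96368256 (Hoxb, 10 genes, plus strand), chr15:102921103-103036852 (Hoxc, 9 genes, plus strand) and chr2:74668310-74765142 (Hoxd, 9 genes, plus strand), in the GENCODE vM21 annotation. The study asked about nystagmus, an involuntary eye movement, in albino mice. Bulk RNA-seq was made from pigmented C57BL/6 mice and from B6(CG)Tyr(c-2J)/J mice, which are albino through a mutation of the tyrosinase gene. Each genotype gave 16 libraries, 4 for each tissue. The muscles were the eye movers (extraocular, EOM) and, from the lower hindlimb, the tibialis anterior (TA). The brain samples were labelled as oculomotor neurons, whose nucleus lies in the midbrain (CN3), and abducens neurons, whose nucleus lies in the hindbrain (CN6). The labels name no treatment, and the age and sex of the mice, and whether animals were pooled, are not given in the sources used here. Nothing in the labels ties a replicate to an animal of its own, so a p-value here measures the spread between these samples and may be technical.

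Hox genes encode homeodomain transcription factors that give cells their place along the head to tail axis. Within a cluster the genes stand in the order of their paralogue numbers, and low numbers are used in the hindbrain and neck while high numbers are used in the lower trunk, tail and distal limb. The midbrain and the head mesoderm that forms the eye muscles develop in front of the Hox territory. Hox proteins bind DNA together with cofactors of the Pbx and Meis families, retinoic acid turns on the low-numbered genes, and Polycomb proteins keep unused Hox genes silent.

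The promoters of 4 genes show the letters upstream of genes on which the results turn: Hoxa2 and Hoxd3, read in CN6, Hoxa9, read in TA, and Hoxd8, read in both muscles. Each is a window from RefSeq on GRCm38.p6 that runs from 250 bases before the gene's start to 50 after it, written 5′ to 3′ on the gene's own strand. Capitals mark a match to TGATTNAT (a Pbx-Hox site), TGACAG (a Meis site) or AGGTCA (the hexamer of retinoic acid and other nuclear receptors), on either strand.
Hoxa2: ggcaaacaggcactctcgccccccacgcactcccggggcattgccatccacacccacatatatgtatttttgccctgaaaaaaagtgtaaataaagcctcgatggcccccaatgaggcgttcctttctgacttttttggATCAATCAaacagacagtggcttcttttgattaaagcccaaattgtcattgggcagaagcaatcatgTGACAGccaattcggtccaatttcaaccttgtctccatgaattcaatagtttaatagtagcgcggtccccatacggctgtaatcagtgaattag
Hoxd3: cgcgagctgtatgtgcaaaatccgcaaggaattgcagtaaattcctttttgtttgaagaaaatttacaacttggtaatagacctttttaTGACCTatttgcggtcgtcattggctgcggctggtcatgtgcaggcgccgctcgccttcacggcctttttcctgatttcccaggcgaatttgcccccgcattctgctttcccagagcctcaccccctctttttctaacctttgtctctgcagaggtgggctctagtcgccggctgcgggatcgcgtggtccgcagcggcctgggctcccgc
Hoxa9: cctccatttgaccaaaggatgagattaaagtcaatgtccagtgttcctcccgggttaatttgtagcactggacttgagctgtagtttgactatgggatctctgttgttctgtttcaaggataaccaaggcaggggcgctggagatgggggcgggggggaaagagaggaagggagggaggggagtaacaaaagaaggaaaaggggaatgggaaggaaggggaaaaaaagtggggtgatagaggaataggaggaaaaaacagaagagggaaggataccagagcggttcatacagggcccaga
Hoxd8: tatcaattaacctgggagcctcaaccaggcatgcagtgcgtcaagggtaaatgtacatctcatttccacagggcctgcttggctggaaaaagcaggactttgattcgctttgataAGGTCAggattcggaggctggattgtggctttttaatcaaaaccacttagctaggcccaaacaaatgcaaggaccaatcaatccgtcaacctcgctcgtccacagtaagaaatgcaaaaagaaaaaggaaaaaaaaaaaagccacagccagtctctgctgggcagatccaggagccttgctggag

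The Hoxa2 window is chr6:52164782-52165081, the Hoxd3 window chr2:74711743-74712042, the Hoxa9 window chr6:52227321-52227620 and the Hoxd8 window chr2:74704365-74704664. Hoxa2 held both a Pbx-Hox match (read as ATCAATCA) and a Meis match, whereas Hoxd3 (read as TGACCT) and Hoxd8 held the nuclear receptor hexamer. Hoxa9 held none of these letters, which says only that they are not in this window. RefSeq windows matched 22 of the 39 genes by symbol, in 24 windows. TGATTNAT stood in 2 of these 24 windows (Hoxa2 and Hoxd11) and in 3.22% of all 32851 promoter windows, and TGACAG in 2 (Hoxa2 and Hoxa3) and 19.18% of all. AGGTCA stood in 7 of the 24 (Hoxa5, Hoxb4, Hoxc4, Hoxd3, Hoxd4, Hoxd8 and Hoxd10) and in 16.26% of all windows. TATAAA, the TATA box, stood in 4 (Hoxa10, Hoxb8, Hoxd4 and Hoxd13) and 13.62%, and TTTATNG, a Cdx site that can overlap a TATA box, in 2 (Hoxb8 and Hoxd4) and 10.91%. The median GC content was 57.6% in the Hox windows and 52.7% in all, with a median of 14.5 and 7 CpG dinucleotides.

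The tissue of 8 of the 16 albino libraries went against its label, as judged by muscle and brain genes. Brain genes filled those labelled albino TA 1 and 2 and albino EOM 1 and 2. Those labelled albino CN3 3 and 4 held the eye muscle myosin Myh13 at 3740 and 3770 CPM (counts scaled by the library total), and those labelled albino CN6 3 and 4 held the muscle creatine kinase Ckm at 13300 and 13000 CPM. Albino groups were therefore formed by markers: EOM from albino EOM 3 and 4 with the libraries labelled CN3 3 and 4, TA from albino TA 3 and 4 with the libraries labelled CN6 3 and 4, CN3 from albino CN3 1 and 2 with the libraries labelled EOM 1 and 2, and CN6 from albino CN6 1 and 2 with the libraries labelled TA 1 and 2. Hoxb3 itself had been used to set the albino CN3 and CN6 groups. The 4 brain libraries labelled as muscle are described here and entered no test. Albino CN3 and CN6 were thus tested with 2 libraries each, those whose label matched the markers. C57BL/6 groups are as labelled. Library totals ran from 18544334 to 27965207 counts in muscle and from 28261869 to 44254021 in brain.

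The tissue labels were also read against defining markers. In C57BL/6 libraries Myh13 ran from 4270 to 4980 CPM for EOM and from 23.8 to 34.8 CPM for TA. A sum of 8 neuronal genes was 5760.0 to 7060.0 CPM in the C57BL/6 brain libraries and at most 118 CPM in C57BL/6 muscle. In C57BL/6 CN3 the motor neuron genes were close to absent, with the acetylcholine-making enzyme Chat at 0.717, 0.452, 0.212 and 0.353 CPM and Phox2a, which marks oculomotor neurons, at 0 in all 4 libraries. The sum of 6 cholinergic motor neuron genes was 4.21 to 7.03 CPM there, 44.3 to 99.1 in albino CN3, a median of 101 in C57BL/6 CN6 and 143 to 159 in albino CN6. The samples labelled C57BL/6 CN3 thus held few motor neuron transcripts. In such bulk samples fewer cells of a type and less RNA per cell cannot be told apart.

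The number of Hox genes detected and their summed level differed between the tissues. In TA, 26 of the 39 genes were detected (3 or more counts) in all 4 C57BL/6 libraries, and the summed Hox level was 170.0 to 184 CPM. In C57BL/6 CN6, 15 were detected in every library and the sum was 83.5 to 154 CPM. C57BL/6 EOM held 2 genes in every library with a sum of 6.1 to 7.87 CPM, and C57BL/6 CN3 held none in every library with 0.652 to 1.92 CPM. In albino libraries the genes detected throughout numbered 26 for TA, 14 for CN6, 4 for EOM and 2 for CN3. Hoxb1, Hoxb13, Hoxc12, Hoxc13, Hoxd11 and Hoxd12 stayed under 3 counts in every one of the 32 libraries.

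**Figure D1:**
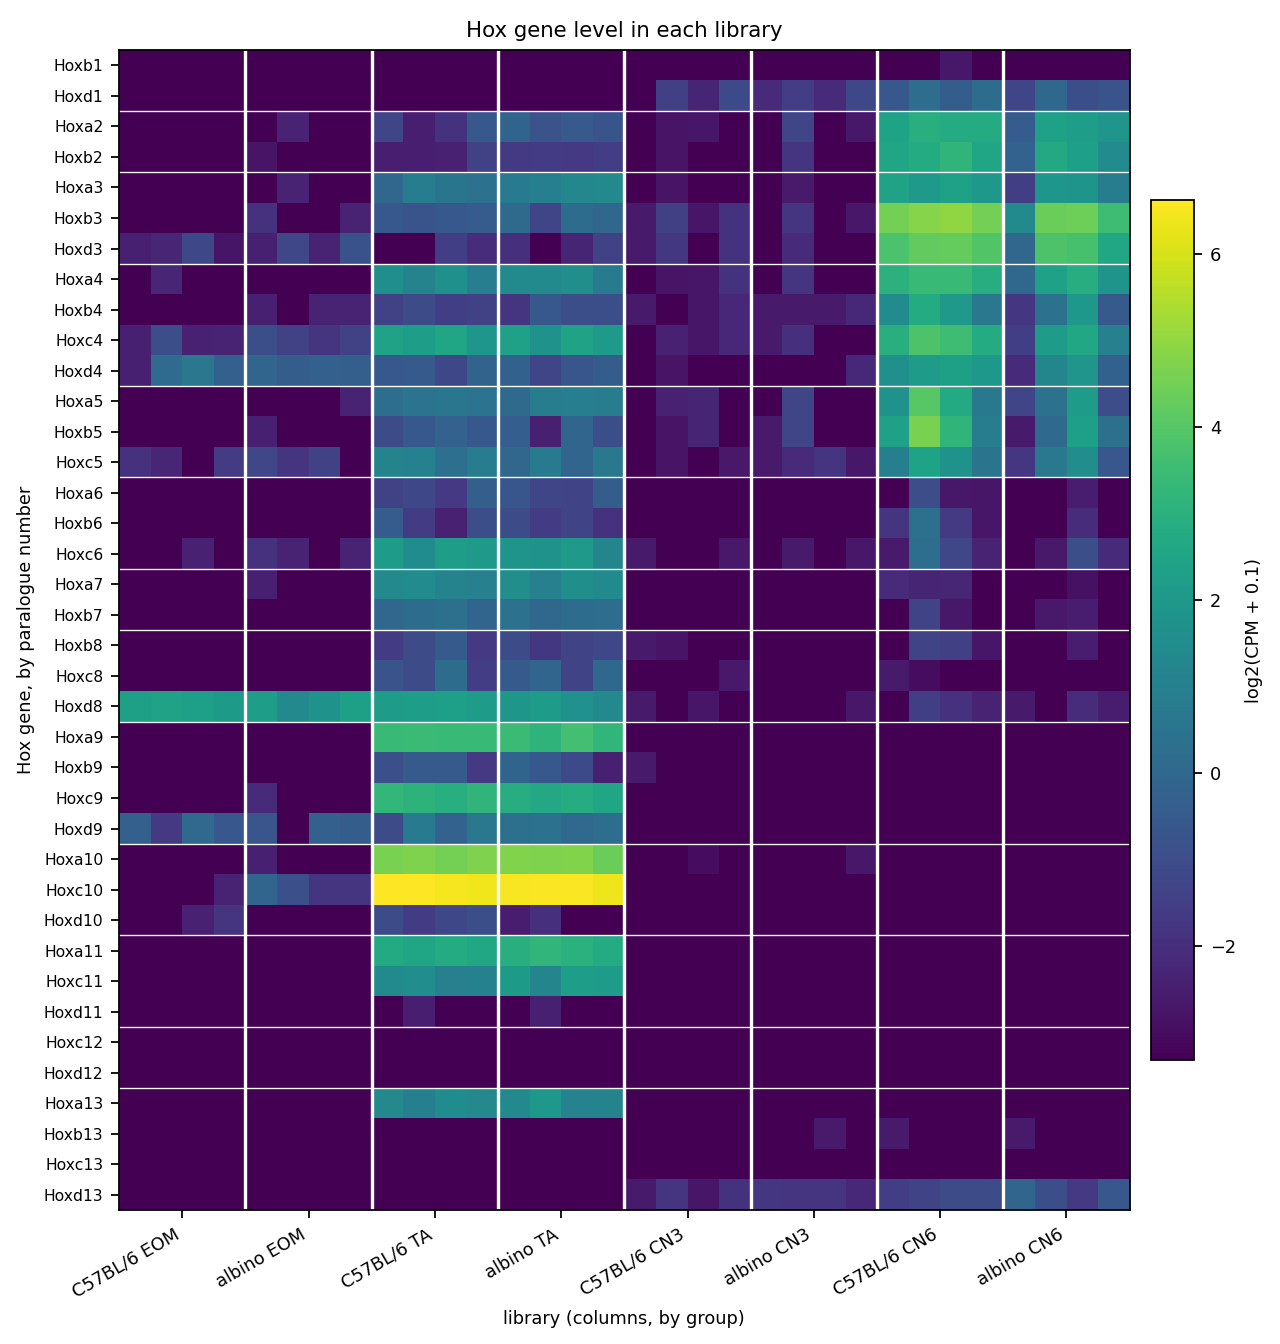
Levels of the clustered Hox genes, all but 1 of the 39 (rows, by paralogue number), in the 32 libraries (columns, by group), as log2(CPM + 0.1) on the colour scale. The highest TA values lie in rows of paralogues 9 to 11, with lower values in many rows of lower number and none for paralogue 12. The CN6 libraries fill rows of low paralogue number, and the EOM and CN3 libraries are nearly empty apart from Hoxd8 in EOM.

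Grouped by paralogue number, the 16 genes of paralogues 9 to 13 made up 82.8% to 85.5% of the summed Hox CPM in C57BL/6 TA and 83.7% to 85.6% in albino TA. Paralogues 1 to 5 made up nearly all of it in C57BL/6 CN6, where paralogues 6 to 8 summed to 0.448, 3.7, 1.2 and 0.351 CPM and paralogues 9 to 13 to 0.306 to 0.402 CPM. Paralogues 6 to 8, almost all of it Hoxd8, made up 61.9% to 81.3% in C57BL/6 EOM and 54.6% to 64.2% in albino EOM. By cluster, Hoxc led in C57BL/6 TA with 115 ± 6.98 CPM (mean ± SD, n = 4), ahead of Hoxa with 52.2 ± 0.387, Hoxd with 6.6 ± 0.596 and Hoxb with 3.74 ± 0.306. In C57BL/6 CN6 Hoxb stood at 48.0 ± 16.5 CPM (n = 4), Hoxa at 29.4 ± 8.01, Hoxd at 22.1 ± 3.64 and Hoxc at 13.4 ± 5.75, and the ranges of Hoxb and Hoxa overlapped. Such sums weigh long transcripts more heavily.

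**Figure D2:**
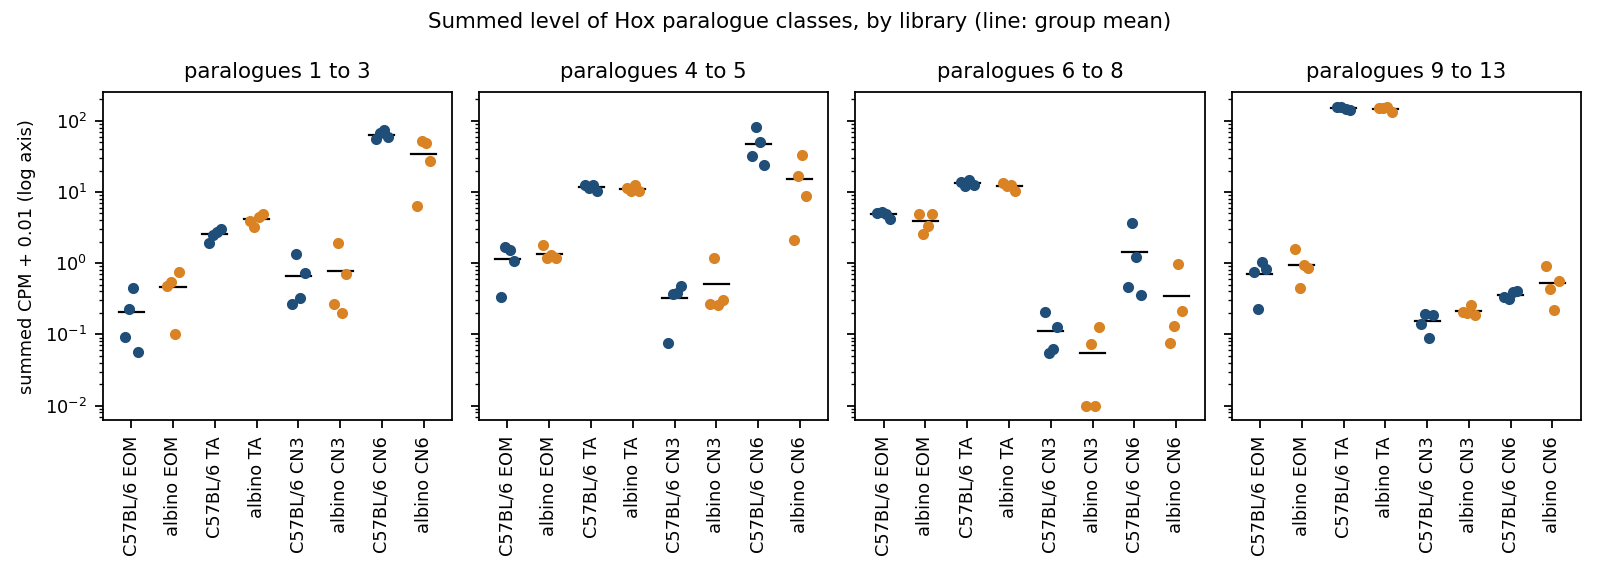
Summed CPM of paralogues 1 to 3, 4 to 5, 6 to 8 and 9 to 13 in the 8 groups, on a log axis after adding 0.01 CPM. Points are libraries, lines are group means, blue is C57BL/6 and orange is albino. Paralogues 9 to 13 stand at 144 to 156 CPM in C57BL/6 TA and at most 1.57 CPM in any other tissue.

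The first comparison set limb muscle against eye muscle. TA held posterior Hox transcripts that were at 0 or at trace levels in EOM, in both genotypes. Hoxc10, a regulator of hindlimb and lumbar identity, was the most abundant Hox gene of TA at 98.7, 97.0, 90.2 and 86.2 CPM in the 4 C57BL/6 libraries, whereas C57BL/6 EOM held 2 counts of it, both in EOM replicate 4. The ratio was 4080 (95% counting interval 1130 to 33700), which covers counting error only, as do all intervals here. The groups were far apart (edgeR quasi-likelihood test, adjusted p = 2.37e-15). Albino TA held Hoxc10 at 91.4, 94.0, 95.5 and 82.0 CPM, overlapping C57BL/6 TA.

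Hoxa10, its paralogue in the Hoxa cluster, read 24.3, 25.7, 23.1 and 26.0 CPM in C57BL/6 TA and 0 counts in C57BL/6 EOM. Against a floor of 3 counts over the group, Hoxa10 was at least 726-fold higher in TA (edgeR adjusted p = 1.01e-13). Albino TA held 26.7, 25.6, 26.6 and 21.1 CPM of Hoxa10, with 2 counts in the whole of albino EOM. Hoxa9 and Hoxc9, genes of the trunk, came next. Hoxa9 was 10.2, 10.8, 10.7 and 10.5 CPM and Hoxc9 was 9.64, 8.52, 7.36 and 9.01 CPM in C57BL/6 TA. Both were at 0 counts in C57BL/6 EOM, so Hoxa9 was at least 308-fold and Hoxc9 at least 254-fold higher in TA (edgeR adjusted p = 2.7e-11 and 5.89e-11). Genes at 0 counts in EOM passed the filter on low counts through TA, so their p-values lend no support of their own.

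Genes of the distal limb were present at lower levels. Hoxa11, which patterns the middle segment of the limb, read 6.68, 5.87, 6.84 and 5.97 CPM in C57BL/6 TA and 0 in EOM, at least 185-fold higher (edgeR adjusted p = 8.01e-11). The antisense gene Hoxa11os lies opposite 34.98% of its exon bases. Hoxa13, a gene of the foot and tail, read 2.44, 1.88, 2.77 and 2.47 CPM, and Hoxc11 2.6, 2.8, 1.91 and 1.97 CPM. Neither had a count in C57BL/6 EOM, which makes Hoxa13 at least 69.6-fold and Hoxc11 at least 67.9-fold higher in TA. Hoxd11 and Hoxd12 were not detected in TA, and Hoxd10 read 36 counts over the 4 C57BL/6 TA libraries against 6 in EOM.

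Lower-numbered genes were also read in TA. Hoxc4 and Hoxc6, known from the neck and forelimb level, were at 5.2, 4.53, 5.72 and 3.65 CPM and at 4.28, 2.76, 4.59 and 4.11 CPM in C57BL/6 TA. In C57BL/6 EOM, Hoxc4 was at 0.0818, 0.431, 0.087 and 0.0918 CPM, which gives a ratio of 29.6 (interval 17.5 to 54.5) with no overlap (edgeR log2 fold change 5.58 ± 0.39 (SE), adjusted p = 6.12e-10). Hoxa7 was at 2.48, 2.68, 2.08 and 1.9 CPM in C57BL/6 TA and at 0 in EOM, at least 66.7-fold higher. Hoxa4 was 3.04, 2.07, 3.07 and 1.82 CPM against 2 counts in all of C57BL/6 EOM, a ratio of 108 (interval 29.7 to 899). Hoxb3 was low but present in each C57BL/6 TA library, at 0.56, 0.499, 0.563 and 0.644 CPM, with no count in C57BL/6 EOM.

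Hoxd8, a trunk gene, broke from the others. It was the most abundant Hox gene of EOM at 4.99, 5.28, 4.79 and 4.17 CPM in C57BL/6 libraries and 4.71, 2.46, 3.33 and 4.87 CPM in albino libraries. In TA it read 4.44, 4.49, 4.76 and 4.26 CPM (C57BL/6) and 3.78, 4.33, 3.21 and 2.44 CPM (albino), so the 2 muscles overlapped. The ratio of TA to EOM in C57BL/6 was 0.933 (interval 0.815 to 1.07) on the CPM scale. Whether Hoxd8 differed depended on the scaling: with TMM factors (edgeR's library scaling) it was higher in TA by a log2 fold change of 0.66 ± 0.19 (SE) in C57BL/6 (adjusted p = 0.00484) and 0.56 ± 0.20 in albino (adjusted p = 0.0166), and with library totals alone the values reversed to -0.10 (adjusted p = 0.662) and -0.16 (adjusted p = 0.493). The albino Hoxd8 call was also lost without albino EOM 4 or albino TA 4 (adjusted p = 0.0556 and 0.0651).

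The other Hoxd genes of EOM were less abundant. Hoxd4, a gene of the hindbrain and neck, read 0.0818, 1.02, 1.44 and 0.734 CPM in C57BL/6 EOM and 0.56, 0.614, 0.346 and 0.787 CPM in C57BL/6 TA. The ranges overlapped, and the test did not call Hoxd4 (edgeR log2 fold change 0.27 ± 0.53 (SE), adjusted p = 0.648). In the GENCODE annotation Hoxd3 and Hoxd4 share 62.35% and 52.31% of their exon bases with other genes on the same strand, each other included. Reads from those bases cannot be told apart. In all, 16 of the 39 genes share exon bases with another gene, 9 on the same strand and 10 on the opposite one. Hoxd9, which is posterior to Hoxd8 in the cluster, read 0.736, 0.216, 0.957 and 0.551 CPM in C57BL/6 EOM and 0.4, 1.57, 0.779 and 1.5 CPM in TA. These overlap, with an edgeR adjusted p of 0.0295 for a log2 fold change of 1.53 ± 0.61 (SE) higher in TA, which became 0.77 (adjusted p = 0.248) with library totals alone. Without C57BL/6 EOM 2, EOM 4, TA 2 or TA 4, in turn, the adjusted p of Hoxd9 was 0.0802, 0.056, 0.0879 and 0.0829.

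**Figure D3:**
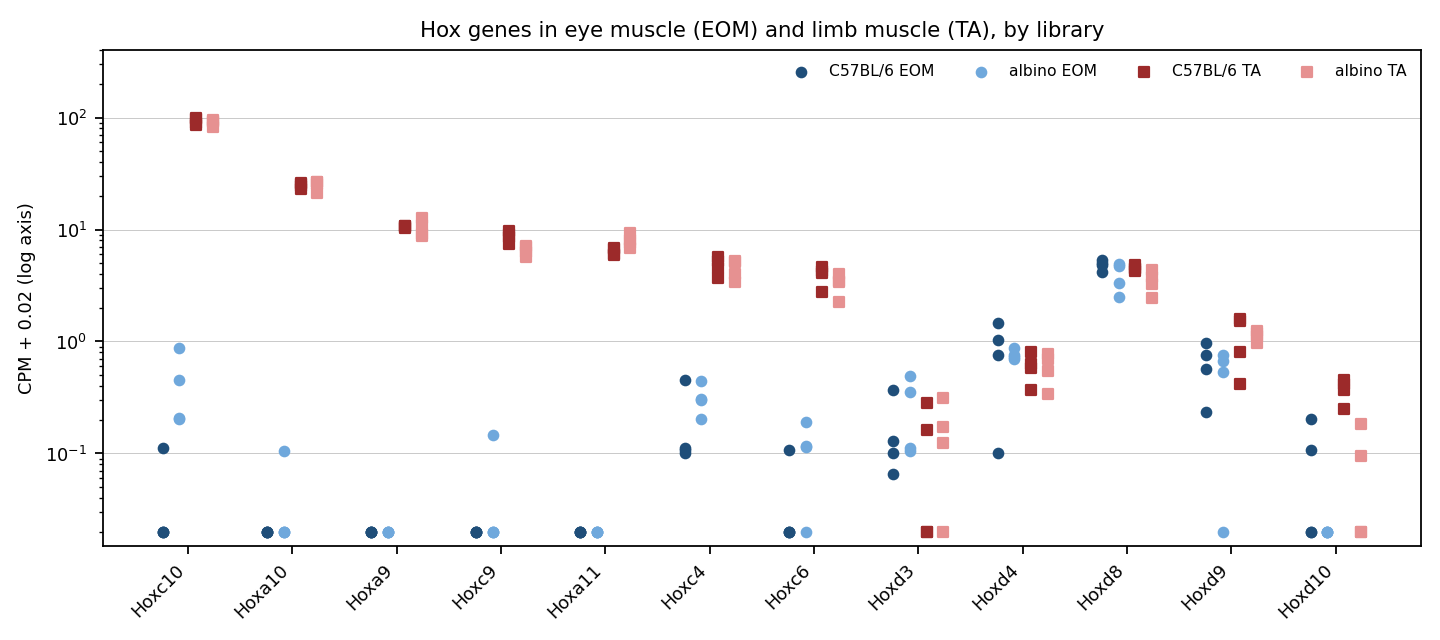
CPM of 12 Hox genes in the muscle libraries, on a log axis after adding 0.02 CPM, with 1 point per library for C57BL/6 and albino EOM and TA. Hoxc10, Hoxa10, Hoxa9, Hoxc9 and Hoxa11 separate TA from EOM without overlap, while Hoxd8 and Hoxd4 overlap.

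Of the 39 genes, 23 passed the filter on low counts in the muscle fit and 16 did not. In C57BL/6, 22 of the 23 were called higher in TA and 0 lower, with Hoxd4 not called, against 35.7% of all 15267 genes tested called higher and 40.2% lower. In albino muscle the count was also 22 higher and 0 lower, against 32.2% and 38.2% of all genes, and with only the libraries whose label matches it was 24 higher of 25 tested. Most of the 23 passed the filter only through TA and had to differ. Neither these counts nor the p-values of such genes lend support of their own. The TMM factors were 1.2544 to 1.3764 in C57BL/6 EOM and 0.7625 to 0.7813 in C57BL/6 TA, and 1.2331 to 1.3349 and 0.7143 to 0.8011 in the albino groups. With library totals alone, 20 of 23 were called higher and 0 lower in each genotype. Over all genes that scaling moved the median log2 fold change from -0.08 to -0.84 in C57BL/6 and from -0.10 to -0.82 in albino. It moved the share of calls that were higher in TA from 47% to 12.1% in C57BL/6 and from 45.7% to 9.67% in albino.

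Connective tissue content differed between the muscles. In C57BL/6 the 6 fibroblast genes summed to 377 to 517 CPM for TA and 4020.0 to 4310.0 CPM for EOM, and in albino mice to 647 to 1010.0 and 2980.0 to 3310.0 CPM. The 4 satellite cell genes summed to 6.11 to 7.97 CPM for C57BL/6 TA and 38.4 to 46.2 CPM for EOM. Which cells of TA held the Hox transcripts was not tested.

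Per kilobase of exon, Hoxc10 was the highest Hox gene of C57BL/6 TA at 48.7 CPM per kb, followed by Hoxa10 at 7.57, Hoxc9 at 3.55 and Hoxa11 at 2.77. Hoxa9, Hoxc4, Hoxc6 and Hoxd8 lay close together at 1.88, 1.86, 1.63 and 1.63 CPM per kb. Hoxa4 followed at 1.57, Hoxc11 at 1.15, Hoxa13 at 0.967 and Hoxa7 at 0.794 CPM per kb.

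Between genotypes, the Hox levels of TA showed no call. Of 23 genes tested, 0 were called higher or lower in albino TA, against 30.1% of all genes called in either direction. An unadjusted p under 0.05 was found for 1 of the 23 (Hoxc11), and for 6142 of all 15267 genes. DESeq2 also called 0, and edgeR called 1 without albino TA 4. Hoxc11 read 4.2, 2.18, 4.53 and 4.29 CPM in albino TA against 1.91 to 2.8 CPM in C57BL/6 TA, a log2 difference of 0.72 ± 0.30 (SE) that missed the threshold (edgeR adjusted p = 0.0941). Its paralogue Hoxa11 read 7.61, 9.3, 8.11 and 6.77 CPM against 5.87 to 6.84 CPM (log2 difference 0.33 ± 0.15 (SE), adjusted p = 0.128). Hoxc10 differed by -0.03 ± 0.13 (SE) and Hoxa10 by 0.01 ± 0.12 on the log2 scale. A sum of 4 leukocyte genes was 24.8 to 25.7 CPM in C57BL/6 TA and a median of 111 CPM in albino TA.

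In EOM, Hoxc10 was called higher in albino libraries, 1 gene of 23 tested, against 39.8% of all genes called in either direction. Hoxc10 read 0.848 CPM in albino EOM 3, 0.433 in albino EOM 4, and 0.185 and 0.187 in the libraries labelled albino CN3 3 and 4, which is 37 counts in all. C57BL/6 EOM held 2 counts, so the ratio was 18.6 (interval 4.8 to 159), and the groups did not overlap, with the highest C57BL/6 value at 0.0918 CPM in EOM replicate 4. The edgeR test gave adjusted p = 0.000419. The 2 albino libraries with the higher values are those whose label matches their tissue, and with only such libraries Hoxc10 was called as well (adjusted p = 8.6e-05). The genotype difference of Hoxc10 in TA less that in EOM was -3.93 ± 0.74 on the log2 scale (SE, edgeR interaction, adjusted p = 0.00282), the 1 Hox gene called of 23 against 13% of all genes. Both counts rose from 1 to 2 without C57BL/6 EOM 2 or 3, and the EOM count also without albino EOM 4, albino TA 4 or the library labelled albino CN3 3.

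Other transcripts of TA were also at low levels in the albino EOM libraries. Lbx1, a factor of migrating limb muscle precursors, read 0.254, 0.193, 0.185 and 0.0937 CPM in albino EOM and 0.164, 0.0, 0.0 and 0.0918 CPM in C57BL/6 EOM, against 13.9 to 18.4 CPM in C57BL/6 TA. Hoxa10, the second Hox gene of TA, had 2 counts, Hoxc9 had 3 and Hoxa9 had 0 counts over the 4 albino EOM libraries. Even in albino EOM, Hoxc10 lay far under albino TA, at a ratio of 214 (interval 155 to 304). Cerebellum transcripts were also higher in albino EOM, where 3 of 4 such genes tested were called higher, against 21.1% of all genes. Other brain lists did not rise there. Of 8 neuron genes 0 were called, and the oligodendrocyte and astrocyte lists had 0 higher and 1 lower each. The cerebellum sum was 83.9 CPM in albino EOM 3, which also had the highest Hoxc10, 1.11 to 5.48 in the other 3 and at most 1.22 CPM in C57BL/6 EOM. The neuron sum was 143 CPM in albino EOM 3, 36.4 to 49.1 in the other 3 and up to 118 CPM in C57BL/6 EOM. Without albino EOM 3 the log2 fold change of Hoxc10, albino over C57BL/6 in EOM, was 3.24 (edgeR adjusted p = 0.0011). Hoxc10 had 0 counts in the CN3 and CN6 libraries of both genotypes. The part of TA or brain transcripts in the albino EOM values was not tested.

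The second comparison set the hindbrain site against the midbrain site. CN6 held Hox genes of paralogues 1 to 5 that were near 0 in CN3. Hoxb3, which is expressed in the hindbrain at and behind the level of the abducens nucleus, was the highest by CPM at 23.0, 28.4, 31.4 and 23.5 CPM in C57BL/6 CN6 and 0.0652, 0.271, 0.053 and 0.176 CPM in C57BL/6 CN3. The ratio was 178 (interval 117 to 284) with no overlap (edgeR log2 fold change 7.47 ± 0.68 (SE), adjusted p = 4.15e-05). Of the exon bases of Hoxb3, 52.93% lie opposite the antisense gene Hoxb3os, and the strand setting of the counting is not given in the sources used here, so reads of the pair cannot be told apart.

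Hoxd3, the Hoxd member of paralogue group 3, read 14.0, 19.0, 19.1 and 14.9 CPM in C57BL/6 CN6 and at most 0.203 CPM in CN3, a ratio of 145 (interval 90.6 to 250). Its promoter, printed above, holds the nuclear receptor hexamer. Hoxa3 read 5.18, 4.0, 5.01 and 3.89 CPM in C57BL/6 CN6 and 2 counts in all of C57BL/6 CN3, a ratio of 328 (interval 90.5 to 2720). All 3 genes of paralogue group 3 were called (edgeR adjusted p = 4.15e-05 for Hoxb3, 0.000157 for Hoxa3 and 0.000167 for Hoxd3).

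Hoxa2 and Hoxb2 give the front hindbrain segments their identity, and Hoxa2 reaches furthest forward of all Hox genes. Hoxa2 read 5.37, 7.37, 6.9 and 6.93 CPM in C57BL/6 CN6 and 4 counts over the C57BL/6 CN3 libraries, a ratio of 246 (interval 95.8 to 905, edgeR adjusted p = 0.000113). Hoxb2 read 5.79, 6.88, 8.92 and 5.77 CPM against 2 counts in CN3, a ratio of 503 (interval 139 to 4160, adjusted p = 9.15e-05). The 2 groups did not overlap for either gene.

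Paralogues 4 and 5, whose front borders lie further back in the hindbrain than the abducens nucleus, were also read in CN6. Hoxa4 read 8.22, 10.3, 10.2 and 7.31 CPM, Hoxc4 read 7.39, 14.2, 11.5 and 6.88 CPM, and Hoxd4 read 3.1, 4.46, 4.98 and 3.84 CPM in C57BL/6 CN6. In CN3, Hoxc4 was at most 0.118 CPM and Hoxa4 at most 0.176 CPM. The ratios were 132 for Hoxa4, 148 for Hoxc4 (interval 80.2 to 309) and 303 for Hoxd4 (interval 83.6 to 2510), each called by edgeR (adjusted p = 6.15e-05, 0.000128 and 0.000237).

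At the front end, Hoxd1 was low. Hoxd1 read 0.544, 1.07, 0.657 and 1.03 CPM in C57BL/6 CN6 against at most 0.353 CPM in CN3, a ratio of 4.42 (interval 2.92 to 6.93, edgeR adjusted p = 0.0202). Without C57BL/6 CN3 3 or CN6 4 the adjusted p of Hoxd1 was 0.0567 and 0.0569. Hoxb1, the gene of hindbrain segment 4, stayed under 3 counts in every library.

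Hoxd13, the last gene of its cluster and known from digits and genital tract, was the 1 gene of paralogues 9 to 13 detected in the brain libraries. It read 0.256, 0.306, 0.383 and 0.402 CPM in C57BL/6 CN6 and 0.0652, 0.181, 0.053 and 0.176 CPM in CN3, without overlap and with a ratio of 2.77 (interval 1.59 to 5.05, edgeR adjusted p = 0.0328). The Hoxd13 call was lost without C57BL/6 CN3 1 or 3 or CN6 2, 3 or 4, with adjusted p from 0.0507 to 0.0862. In albino brain Hoxd13 was 0.212 to 0.847 CPM in CN6 and 0.116 to 0.194 CPM in CN3. It was not detected in any muscle library.

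Of the 39 genes, 16 passed the filter in the brain fit, and in C57BL/6 all of these 16 were called higher in CN6 and 0 lower, against 12.7% of all 16604 genes called higher and 13.3% lower. They passed mainly through CN6, so this count and their p-values between the sites are given as a description. Of 12 midbrain factors, all 12 passed, with 4 higher and 5 lower in C57BL/6 CN6. Among the lower ones Otx2 read 15.3, 9.45, 26.4 and 19.6 CPM in C57BL/6 CN3 and 1.15, 1.3, 0.575 and 0.402 in CN6. The cholinergic motor neuron sum given above was higher in C57BL/6 CN6 than in C57BL/6 CN3. Albino CN3 held 44.3 to 99.1 CPM of it with a summed Hox level of 0.686 to 3.33 CPM. Albino CN6 1 held 159 CPM with a summed Hox level of 9.41 CPM. Albino CN6 2 and the libraries labelled albino TA 1 and 2 held 143, 152 and 147 CPM, with summed Hox levels of 69.8, 83.2 and 36.8 CPM. The part of motor neuron content in the Hox levels was not tested.

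Within C57BL/6 CN6 the genes varied to different degrees. Hoxa2 had a coefficient of variation of 13.1% (6.37% is due to counting) and Hoxb3 one of 15.2% (3.2% from counting). The values of Hoxa4 and Hoxd4, given above, also spread far less than those of Hoxb5 and Hoxa5. Hoxb5 ran from 1.76 to 24.6 CPM, at 5.09, 24.6, 9.03 and 1.76, with a coefficient of variation of 99.9% against 5.12% from counting. Hoxa5, the neighbour of Hoxa4 and a gene of the caudal hindbrain and neck, ran in the same order at 3.39, 16.3, 6.6 and 1.53 CPM, and its coefficient of variation was 94.4% against 6.18%.

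CN6 library 2 of C57BL/6 was the highest for each of Hoxa5, Hoxb5, Hoxb4 (2.69, 6.86, 4.08 and 1.48 CPM), Hoxc5 (1.86, 5.4, 3.39 and 1.33 CPM), Hoxb6 (0.192, 1.17, 0.219 and 0.0502 CPM) and Hoxc6 (0.064, 1.12, 0.329 and 0.1 CPM), and library 4 was the lowest for all but Hoxc6. The ratio of paralogues 4 and 5 to paralogues 1 to 3 was 0.569, 1.2, 0.672 and 0.412 in the 4 libraries. Aldh1a2, which makes retinoic acid and was named after its values were seen, read 3.9, 11.7, 3.42 and 2.16 CPM there and was also highest in library 2. Pax8, a hindbrain interneuron factor, was steady at 19.0, 18.9, 18.7 and 19.4 CPM. The part of tissue rich in Aldh1a2 in this spread was not tested. Hoxc6 was called (edgeR adjusted p = 0.0273) but not without C57BL/6 CN3 library 2 or 3 (adjusted p = 0.0556 and 0.07). Without C57BL/6 CN6 library 2 or 3, Hoxc6 did not pass the filter and was not tested.

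**Figure D4:**
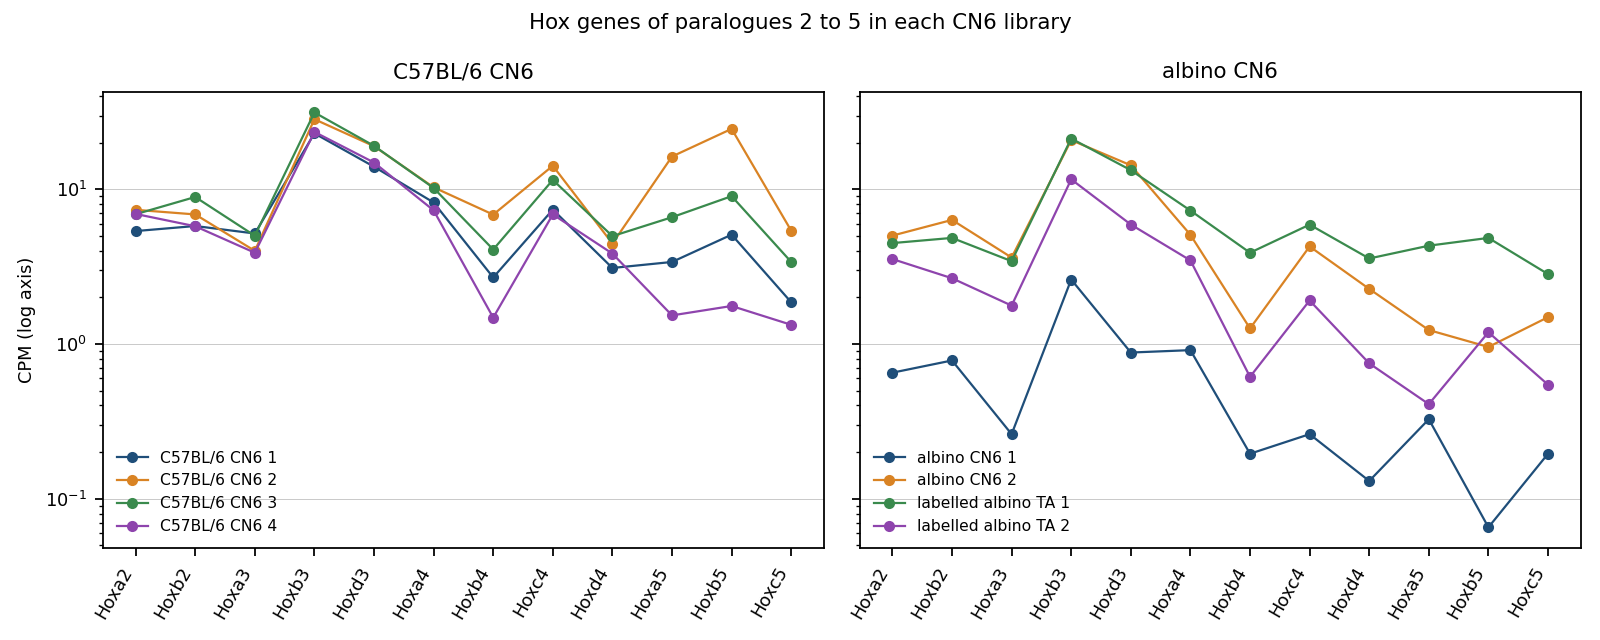
CPM of 12 genes of paralogues 2 to 5 in each CN6 library on a log axis, 1 line per library, with C57BL/6 and albino in separate panels. C57BL/6 lines lie close for Hoxa2 to Hoxd3 and fan out at Hoxa5 and Hoxb5, from 1.53 to 16.3 and from 1.76 to 24.6 CPM, and albino CN6 1 lies under the other albino lines for most genes.

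Per kilobase, Hoxb3 led in C57BL/6 CN6 at 6.25 CPM per kb, then came Hoxa4 at 5.66, Hoxd3 at 4.0, Hoxc4 at 3.89, Hoxa2 at 3.74, Hoxa5 at 3.7 and Hoxb5 at 3.63. Over the libraries Hoxa5 and Hoxb5 overlapped most of the others in this order. Hoxb2 stood at 1.96, Hoxb4 at 1.47, Hoxd4 at 1.39, Hoxc5 at 0.97 and Hoxa3 at 0.752 CPM per kb.

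In albino CN6 the 4 libraries differed widely. Hoxb3 read 2.61 CPM in albino CN6 1, 20.8 in albino CN6 2, and 21.3 and 11.6 in the libraries labelled albino TA 1 and 2, which is a description since Hoxb3 set the group of the last 2. Hoxd3 read 0.88, 14.3, 13.3 and 5.92 CPM and Hoxa2 read 0.652, 5.02, 4.49 and 3.54 CPM in the same libraries, and albino CN6 1 was the lowest for all 3 genes. Albino CN6 1 stood apart with a summed Hox level of 9.41 CPM against up to 83.2 CPM in the others. It held the serotonin neuron enzyme Tph2 at 244 CPM, against 11.5 to 67.7 in the other 3, and Pax8 at 4.27 CPM against 17.9, 15.3 and 8.85. The part of serotonergic tissue in its Hox level was not tested.

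In albino CN6, Hoxb5 and Hoxa5 varied as well, at 0.0652, 0.956, 4.85 and 1.19 CPM for Hoxb5 and at 0.326, 1.23, 4.32 and 0.408 CPM for Hoxa5, with overlap between the genotypes. On the 2 albino libraries tested, Hoxb5 differed by -4.26 ± 1.07 (log2, SE) and did not pass (edgeR adjusted p = 0.409). Across the 16 genes, 0 were called in CN6 between genotypes, against 0.0301% of all genes. An unadjusted p under 0.05 was found for 9 of them, and for 1203 of all 16604 genes. DESeq2 called 0, and edgeR called 8 lower in albino without albino CN6 2, a fit in which albino CN6 1 is the lone albino CN6 library and is assumed to vary like the other groups. In CN3, 0 of 16 were called between genotypes, against 0.247% of all genes. There 0 had an unadjusted p under 0.05, against 1913 of all 16604 genes. DESeq2 called 0 there.

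Between the albino sites, 0 of the 16 genes were called in either direction. An unadjusted p under 0.05 was found for 11 of them, and for 1605 of all 16604 genes. Of all genes, 0.012% were called higher and 0.0241% lower in CN6. Hoxb3 was among the 16 and had been used to set the albino groups, so its test lends no support of its own. DESeq2 called 6 higher. Without albino CN6 1, edgeR called 8 higher, again with a lone albino CN6 library (CN6 2) and the spread taken from the other groups, and without C57BL/6 CN3 2 it called 1. Over all 8 albino libraries, described only, the ratio of CN6 to CN3 was 280 for Hoxd3 (interval 109 to 1030) and 147 for Hoxa3 (40.4 to 1220). It was 37.0 for Hoxa2 (21.0 to 72.2) and 2.99 for Hoxd13 (1.81 to 5.1). The site of 4 of these libraries was set with Hoxb3, itself a Hox gene, so these ratios lend no support of their own. In albino CN3 the highest Hoxa2 value was 0.318 CPM, in albino CN3 2.

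Noncoding transcripts made from within the Hox clusters were measured as well. Of 14 listed, 11 were in the table and 4 passed the filter in muscle, and all 4 were called higher in C57BL/6 TA (3 with library totals alone), against 35.7% of all genes. Like the coding genes, they passed the filter mainly through TA, and those of the brain through CN6, so these counts are descriptions. Hotair, from between Hoxc11 and Hoxc12, read 0.614 to 0.8 CPM in C57BL/6 TA and 0 counts in both EOM groups and in brain. Hoxa11os, the antisense partner of Hoxa11, read 4.32 to 5.37 CPM in C57BL/6 TA and Mira, between Hoxa6 and Hoxa7, 3.29 to 3.8 CPM. In CN6 the 3 that passed were called higher than in CN3, against 12.7% of all genes: Hoxaas2 at 3.44 to 4.19 CPM in C57BL/6 CN6, Hotairm1 at 3.01 to 4.12 CPM, and Haglr, in the Hoxd cluster, at 6.94 to 9.97 CPM.

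Among Hox cofactors, 9 were listed and 8 passed the filter in muscle. In C57BL/6, 2 were called higher and 3 lower in TA (0 higher and 5 lower with library totals alone), against 35.7% and 40.2% of all genes. Meis3 was lower in TA, at 0.52 to 1.27 CPM against 4.73 to 6.9 in EOM (edgeR log2 fold change -2.01 ± 0.25 (SE), adjusted p = 1.14e-06), as was Meis2, at 0.0 to 0.286 against 4.04 to 9.27 CPM (adjusted p = 4.29e-05). Meis1, at 3.4 to 5.41 CPM in C57BL/6 TA and 2.21 to 5.53 CPM in EOM, overlapped (adjusted p = 0.0777). In brain all 9 passed, with 3 higher and 4 lower in C57BL/6 CN6, against 12.7% and 13.3% of all genes. Meis1 was 36.1 to 45.3 CPM in CN6 and 10.4 to 13.2 in CN3 (log2 fold change 1.85 ± 0.13 (SE), adjusted p = 1.07e-05). Meis2 was higher too, at 192 to 205 against 47.0 to 102 CPM (adjusted p = 0.00166).

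Of 15 upstream regulators, 8 passed in muscle, with 2 higher and 4 lower in C57BL/6 TA (1 and 5 with library totals alone), a share near the 75.9% of all genes called. Aldh1a2 was lower in TA at 0.606 to 1.53 CPM, against 19.0 to 25.2 in EOM (edgeR log2 fold change -3.84 ± 0.27 (SE), adjusted p = 7.01e-10). In brain 10 passed, with 2 higher and 0 lower in C57BL/6 CN6 against 12.7% and 13.3% of all genes, namely Cyp26b1, which breaks down retinoic acid, at 49.8 to 61.3 against 1.37 to 9.26 CPM (log2 fold change 3.30 ± 0.40 (SE), adjusted p = 0.000226), and the trunk signal Gdf11 (0.33 ± 0.09 (SE), adjusted p = 0.0206). Of 16 Polycomb and trithorax genes, 5 were higher and 4 lower in C57BL/6 TA under TMM, and 1 higher and 12 lower with library totals alone, so no direction is given, and under TMM the share called lay below that of all genes. In C57BL/6 CN6, 0 were higher and 5 lower (6 lower with library totals alone), against 12.7% and 13.3% of all genes. The median log2 fold change in that list was -0.18 against -0.01 over all genes.

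Among positional factors outside the Hox class, 12 of 13 limb factors passed, and 2 were higher and 7 lower in C57BL/6 TA (2 and 9 with library totals alone), a share near the 75.9% of all genes called in either direction. Lbx1 was among the higher ones, at 13.9 to 18.4 CPM in TA and at most 0.164 CPM in EOM (edgeR log2 fold change 8.59 ± 0.30 (SE), adjusted p = 1.32e-13). Alx4, a factor of limb and craniofacial mesenchyme, was lower, at 0.0 to 0.52 CPM in TA and 211 to 236 CPM in EOM, as was the hindlimb factor Pitx1, at 0.0715 to 0.26 against 2.83 to 5.72 CPM. Of 8 head muscle factors, 6 passed, with 1 higher and 5 lower in C57BL/6 TA under TMM and with library totals alone, against 35.7% higher and 40.2% lower of all genes under TMM. Tbx1, a factor of branchial muscle, was the 1 higher in TA at 40.6 to 48.9 against 2.41 to 5.5 CPM.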

How the data were processed

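The deposited file is 1 table of raw read counts per gene for 32 libraries. Per the submitters' processing notes the authors used Trimmomatic 0.33, FastQC, HISAT2 2.1.0, featureCounts and edgeR with the mm10 genome, and per the labels' protocols RNA was isolated with RNeasy Fibrous Tissue or Lipid Tissue kits. The strand setting is not given in the sources used here. Of 24421 rows, 27 bear date-like names in place of gene symbols, at most 0.309% of a library's counts.

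CPM are counts scaled by the library total. Tests were edgeR 4.0.16 quasi-likelihood F tests (R 4.3.3) with TMM factors, the filterByExpr filter and Benjamini-Hochberg adjustment over all genes, called at 0.05. There was 1 fit of 16 muscle libraries and 1 of 12 brain libraries, those whose label matched the marker rule, which used Hoxb3 for the albino sites. Detection and the floor for a group at 0 are 3 counts. Ratios have 95% counting intervals.

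Values in every library are given for Hoxb3, for up to 8 Hox genes with the highest mean CPM (at least 0.5) in each C57BL/6 group, and for up to 8 called genes with the largest fitted change per comparison. From other lists up to 4 members with the smallest adjusted p may be named. The members and lists, and the albino groups, were chosen with earlier results of these data known. Alternatives were library totals or DESeq2 size factors, no filter, DESeq2 1.42.0, all tissues in 1 fit, labels as deposited, leaving out each library in turn and a replicate block. The scripts were tested on simulated data. Some genes of the lists are not reported here.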

Additional observations from a re-analysis of the deposited data

Results flagged for a closer look

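In albino TA, 1 library of 4 lay far from the other 3 for 2 genes. Hoxa5 read 0.984 CPM in albino TA 3 and 1.7, 1.79 and 1.72 CPM in the others, and Hoxc11 read 2.18 CPM in albino TA 4 and 4.2, 4.53 and 4.29 CPM in the others. Dixon's test at the 95% level was run on 77 groups of 4 values, and chance marks about 1 in 20 groups, so 2 marks are fewer than chance alone gives.

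Hoxc10 had a genotype difference that differed between the muscles, at -3.93 on the log2 scale for TA less EOM (edgeR interaction, adjusted p = 0.00282). Its level was 0.185 to 0.848 CPM in albino EOM and at most 0.0918 CPM in C57BL/6 EOM, and it overlapped between genotypes in TA. The difference was -4.53 with only the libraries whose label matches.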

How the results depend on the processing

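Single gene results gave 1376 alternatives with the same direction and call, 60 that lost the call and 2 that reversed. Both reversals were Hoxd8 with library totals alone, a scaling added after seeing the data (-0.10 in C57BL/6 and -0.16 in albino). Alternatives in which the gene failed the filter or had no adjusted p are left out of these counts. For albino CN6 against CN3, 0 genes were called, against 1 with no filter, 6 with DESeq2, 7 with all tissues in 1 fit and 1 with the replicate block, and 0 to 8 when leaving out each library, which for albino libraries leaves 1 in an arm with the spread of the other groups. For genotype in CN6 the 0 became 2 with the replicate block and 0 to 8 when leaving out each library, and in TA 0 to 1. For genotype in EOM the 1 became 2 with no filter, 2 with DESeq2, 2 with only libraries whose label matches, 0 as labelled, and 1 to 2 when leaving out each library. As labelled, the count was 1 in place of 22 for albino TA against EOM, 7 in place of 16 for C57BL/6 CN6 against CN3, and 0 in place of 1 for the interaction, which gave 1 to 2 when leaving out each library. By label the albino groups hold both muscle and brain libraries, and all C57BL/6 libraries match their labels. The cause of the other changes was not tested.

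With all tissues in 1 fit Hoxd8 was not called (adjusted p = 0.0719 in C57BL/6 and 0.0971 in albino). The replicate numbers gave no clear pairing of the libraries. Same-numbered C57BL/6 EOM and TA libraries correlated at 0.0283, -0.0032, 0.0951 and 0.0283, and CN3 and CN6 libraries at 0.0363, -0.1396, 0.1173 and 0.0661. In each set 2 of 4, replicates 3 and 4, correlated best with their own number, so these values cannot settle whether libraries are paired. With the replicate block Hoxd9 in C57BL/6 had an adjusted p of 0.0712. Library pairs within a group differed by more than counting noise (smallest chi-square per gene 6.04). Where both groups lie under 3 counts a library, as for most Hox genes between genotypes in CN3 and EOM, no difference could be detected at this depth.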
